A study of Mus musculus with 17 samples.

Results

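A set of 8 cell surface genes that are used to sort or to characterize spermatogonial stem cells (SSCs) was followed through the RNA-seq data: Kit, Itga6, Itgb1, Itgav, Thy1, Cd9, Cd24a and Mcam. They are 8 of the 23891 gene symbols in the files. They were taken by symbol and not by a cutoff on their levels, but earlier results of these data were known when they were chosen. The files hold 10 RefSeq transcripts for them, since Kit and Itga6 have 2 each, and every gene was described by its transcript with the highest mean FPKM over the 17 samples. FPKM is the fragment count scaled to transcript length and library size, so that levels can be set side by side between genes.

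Spermatogonial stem cells sit on the basement membrane of the seminiferous tubule and either renew themselves or enter spermatogenesis. Integrins are pairs of an alpha and a beta chain that bind the extracellular matrix, and the pair of the α6 chain (Itga6) with the β1 chain (Itgb1) binds laminin, a main protein of the basement membrane. Sorts for the stem cells of the testis have used the α6 chain, the β1 chain, Thy-1, CD9, CD24 and MCAM as markers to be kept, and c-Kit, the receptor of stem cell factor, and the αv chain (Itgav) as markers to be sorted out. c-Kit appears on spermatogonia as they begin to differentiate, and it is a classical marker of haematopoietic progenitors and mast cells.

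The study compared 4 SSC lines from adult mouse testis with 6 multipotent adult spermatogonial-derived stem cell (MASC) lines, 2 embryonic stem cell (ESC) lines, 2 induced pluripotent stem (iPS) cell lines, 2 haematopoietic stem cell (HSC) cultures and 1 sample of mouse embryonic fibroblasts (MEFs). MASCs arose in SSC cultures and resemble ESCs, and MASCs, ESCs and iPS cells are called the pluripotent lines here. SSC.1 and SSC.2 carried an Oct4-GFP reporter, SSC.3 was C57Bl/6J and SSC.4 129mix. Of the MASC lines, MASC.1 and MASC.2 were Oct4-GFP, MASC.3 and MASC.4 129mix, and MASC.5 and MASC.6 Gt(ROSA26)Sor-lacZ. ESC.1 was Oct4-GFP and ESC.2 was 129mix. The iPS cells were 129mix and were made from E13.5 embryonic fibroblasts by an inducible cassette of 4 reprogramming factors (tetO-4F2A) switched on with doxycycline at 2 µg/ml. The MEF sample was 129mix and came from E13.5 embryos. The HSC cultures came from C57Bl/6J bone marrow from which lineage-positive cells had been removed, and they were kept with endothelial feeder cells and soluble Kit ligand at 10 ng/ml. SSCs grew with GDNF and growth factors, pluripotent lines with LIF, and both on MEF feeder cells. Before collection, SSCs were left on gelatin for some hours and the floating cells were taken, a step meant to leave feeder cells behind. The SSC lines are cultured lines whose surface antigens were checked by flow cytometry, and no source used here says that these libraries were made from cells sorted on the 8 markers. The SSC, MASC and ESC groups each hold more than 1 genetic background, while the 2 iPS lines share theirs. Some SSC and MASC lines also share a background within their group, and the study states that MASC and ESC lines were subcloned. Nothing states how lines of the same background, or the HSC cultures, relate to each other.

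Marker lists were read before the 8 genes. The 14 spermatogonial markers summed to between 1098 and 1202 FPKM in SSCs and between 131 and 185 FPKM in the pluripotent lines, and 10 pluripotency markers summed to between 3441 and 6714 FPKM in the pluripotent lines and between 28.3 and 171 FPKM in SSCs, with the highest SSC sum in SSC.1, where Pou5f1 stood at 94.5 FPKM. The HSC cultures held all 10 blood markers but also all 8 mast cell markers, which summed to 38888 and 63345 FPKM, so they are called by their label only. The 10 blood markers were also all at 1 FPKM or more in the MEF sample, with a sum of 510.3 FPKM. The 14 fibroblast markers, which stand for MEF feeder cells as well, summed to 6884 FPKM in the MEF sample and passed 5% of that in 5 other libraries, namely SSC.1 (6.80%), SSC.3 (15.4%), MASC.1 (18.7%), ESC.1 (6.53%) and HSC.2 (7.22%). The 10 markers of testis somatic cells summed to between 28.9 and 36.3 FPKM in SSCs and between 14.7 and 132 FPKM in the pluripotent lines. Against the pluripotent lines, 2 of them were called higher in SSCs (Wt1 and Sox9) and 1 lower (Acta2). Wt1 was at 8.17 to 20.9 FPKM against 0.441 to 4.41 FPKM. Of all transcripts, 10.1% were called higher and 6.08% lower in this comparison. Depth, read as Cufflinks coverage at 1 FPKM, lay between 1.26 and 3.23 reads per base, and between 13532 and 16272 transcripts per library reached 1 FPKM. In bulk samples such as these, fewer cells of a type and less RNA per cell cannot be told apart.

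The 2 transcripts of Itga6 and of Kit differ in short coding stretches, and these are shown because the shares of the transcripts are given below. For Itga6 the HSC and MEF shares lay apart from those of all lines. For Kit the shares in SSCs and HSCs lay inside the range of MASCs. None of these shares was tested. The longer Itga6 transcript (NM_008397, 6018 bases) holds an exon of 130 bases that the shorter one (NM_001277970, 5888 bases) lacks. In GENCODE vM1 it is exon 25 of 26 of Itga6-001, at chr2:71691591-71691720 on the plus strand of NCBIM37 (mm9). It encodes the end of the cytoplasmic tail, and the stop codon is in capitals below. Transcripts without this exon read on into the next exon and encode another tail, and the α6 chains with the former and the latter tail are known as α6A and α6B. The longer Kit transcript (NM_001122733, 5181 bases against 5165 in NM_021099) starts 4 bases earlier and ends exon 9 of 21 later by 12 bases, at chr5:76035172-76035183 on the plus strand. These 12 bases are in capitals after the last 30 bases that both transcripts share, and they lie in the part that encodes the receptor's extracellular stretch next to the membrane.
Itga6 exon 25: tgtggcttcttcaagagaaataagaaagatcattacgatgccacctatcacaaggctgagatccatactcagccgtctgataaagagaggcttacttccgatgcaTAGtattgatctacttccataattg
Kit end of exon 9: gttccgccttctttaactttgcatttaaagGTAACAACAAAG

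Levels were compared on the log2(FPKM + 1) scale with limma, with Benjamini-Hochberg adjustment of the p-values over all 32661 transcripts, and a transcript was called when the adjusted p was below 0.05 and the difference at least 1. The adjusted p-values given for differences below are all of this kind. The value for the pluripotent lines is the mean of the MASC, ESC and iPS group means. Every comparison uses the same 4 SSC lines, so the comparisons are not independent of each other. Shares of all transcripts given below are over these 32661, of which 20119 reached 1 FPKM in at least 2 samples. A transcript near 0 in all samples has little room for a difference of 1. The shares are thus not those of expressed transcripts alone. Against the pluripotent lines, 1 of the 8 markers was called higher in SSCs (Mcam) and 1 lower (Itga6), where 10.1% of all transcripts were called higher and 6.08% lower. The same 2 genes were called in the same directions against MASCs alone, where 9.6% of all transcripts were called higher and 6.04% lower, and against ESCs alone, where these shares were 8.75% and 4.96%. Against HSCs, Mcam and Itga6 were called higher in SSCs and Kit lower, with 14.2% and 8.75% of all transcripts called. Against the MEF sample, Kit, Itga6 and Mcam were called higher and Thy1 and Itgb1 lower, with 13.1% and 7.4% of all transcripts called. These 5 calls rest on 1 MEF sample and on the spread of all 17 samples, and none of them was kept in a fit of SSCs and the MEF sample alone. Mcam was the 1 marker that lay in all 4 SSC lines above all 10 pluripotent lines, which held for 13.3% of all transcripts, and no marker lay below all 10, which held for 7.86%.

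**Figure D1:**
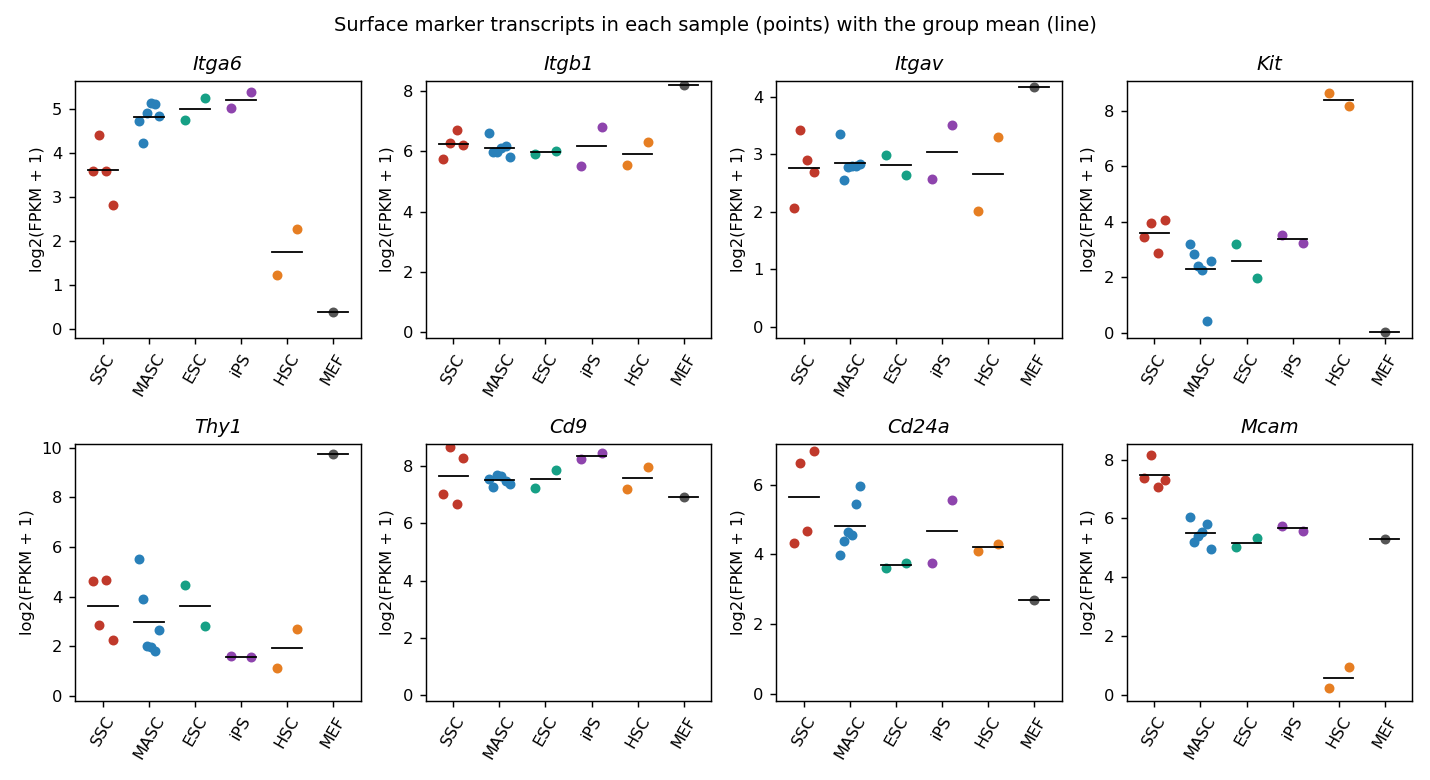
Levels of the 8 surface markers on the log2(FPKM + 1) scale (y axes, which differ between panels) in the 4 SSC, 6 MASC, 2 ESC, 2 iPS, 2 HSC and 1 MEF samples. Each point is a sample and each line the group mean. The 4 SSC points stand above all others for Mcam, the HSC points stand highest for Kit, and the MEF point stands highest for Thy1, Itgb1 and Itgav.

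Mcam encodes a cell adhesion molecule of the immunoglobulin superfamily, also called CD146, that is known from endothelium, pericytes and smooth muscle. It was the marker that set SSCs apart from every other group. Its level was 164 FPKM in SSC.1, 282 FPKM in SSC.2, 134 FPKM in SSC.3 and 157 FPKM in SSC.4. In the 10 pluripotent lines it had a lowest value of 30.0 FPKM, a median of 43.3 FPKM and a highest value of 65.6 FPKM. The MEF sample held 38.6 FPKM, and the HSC cultures held 0.182 and 0.924 FPKM. The SSC values thus overlapped with no other group. The share of all transcripts for which this holds was counted only against the 10 pluripotent lines (13.3% above). The difference in log2(FPKM + 1) was 2.03 ± 0.24 (SE) against the pluripotent lines, which is 4.09-fold (adjusted p = 4.32e-05), 6.88 ± 0.34 against HSCs (adjusted p = 2.15e-08) and 2.17 ± 0.44 against the MEF sample (adjusted p = 0.0031). Against MASCs of the same background it was 2.13 for the 2 SSC lines with Oct4-GFP and 1.83 for the SSC line of 129mix. In the order of group levels, SSCs came first, and the ranges of iPS cells and MASCs, of MASCs and the MEF sample, and of the MEF sample and ESCs overlapped. Of the 10 endothelial markers, 2 were at 1 FPKM or more in each SSC line, and their sum was between 9.54 and 53.0 FPKM in SSCs and between 10.8 and 23.9 FPKM in the pluripotent lines. Most of the sum in SSC.1, SSC.3 and SSC.4 was Erg, an ETS transcription factor, at 50.3, 30.4 and 41.1 FPKM, with 2.78 FPKM in SSC.2 and at most 0.156 FPKM in the pluripotent lines. Pecam1 was lower in SSCs than in the pluripotent lines by 1.89 in size. Over the 14 lines grown on MEF feeders, which share that culture step, Mcam and the fibroblast sum had r = 0.18 and rho = 0.03. Mcam lies at chr9:43942741-43950809 (mm9), and 86078 bases separate it from the end of Thy1.

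Itga6, the laminin-binding α6 chain, was lower in SSCs than in the pluripotent lines and higher than in the MEF sample. The level of its main transcript was 11.1 FPKM in SSC.1, 20.3 FPKM in SSC.2, 11.1 FPKM in SSC.3 and 6.08 FPKM in SSC.4. The pluripotent lines ran from 17.8 to 40.9 FPKM with a median of 30.5 FPKM. SSC.2 lay inside this range and the other 3 SSC lines lay below it. The difference was -1.41 ± 0.29 on the log2 scale, so the level was 2.66-fold higher in the pluripotent lines (adjusted p = 0.00244). Within genetic backgrounds, SSCs minus MASCs gave -0.48 in Oct4-GFP and -2.21 in 129mix. Against MASCs alone the difference of -1.22 was no longer called with a term for genetic background (adjusted p = 0.0907) or without SSC.4 (-0.96). Leaving out the libraries over 5% of the MEF fibroblast sum, a setting chosen after seeing the data, kept only SSC.2 and SSC.4 of the SSC lines. The difference from MASCs was then -1.23 and was not called, and that from the pluripotent lines was -1.49. Against ESCs the difference of -1.40 (adjusted p = 0.0304) lost its call without ESC.1, ESC.2, SSC.1 or SSC.3, where it ran from -1.65 to -1.15. Over the 14 lines on feeders, Itga6 and the fibroblast sum had r = -0.48 and rho = -0.60.

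Against HSCs, the Itga6 result turned on which transcript was read. The main transcript stood at 1.37 and 3.89 FPKM in the HSC cultures and was called higher in SSCs by 1.84 ± 0.41 (adjusted p = 0.00391). This call was lost without HSC.1 (1.32) and with a term for genetic background (1.83). SSC.3 is the only line that shares the background of the HSC cultures, so that term sets SSC.3 alone against them. The longer transcript stood at 6.78 and 26.1 FPKM in the HSC cultures and at 1.58 to 4.65 FPKM in SSCs. Summed over both transcripts, Itga6 was at 8.15 and 30.0 FPKM in HSCs and at 7.66 to 24.9 FPKM in SSCs, and the sign of the difference turned to -0.21 (adjusted p = 0.844). The longer form, with the exon that holds the stop codon shown in capitals, made up 83.2% and 87.1% of the FPKM of both forms in the HSC cultures and 90.0% in the MEF sample. Its share was 12.6%, 18.6%, 19.4% and 20.6% in SSC.1 to SSC.4. In the pluripotent lines it ran from 3.39% to 30.7% with a median of 6.95%, and the highest of these was iPS.2, while the other iPS line had the lowest. These shares rest on how Cufflinks assigned reads to 2 transcripts that differ by 130 bases, and they were not tested. Against the MEF sample, where the main transcript was at 0.323 FPKM, the difference was 3.20 ± 0.52 (adjusted p = 0.00082), and 1.79 for the summed transcripts (adjusted p = 0.0485).

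**Figure D2:**
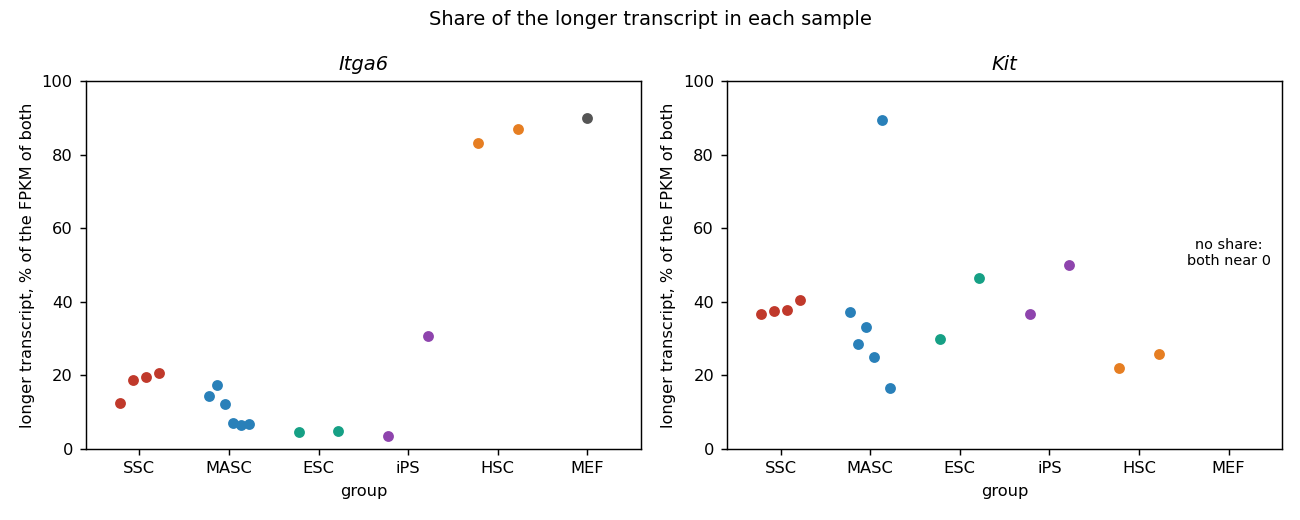
Share of the longer transcript in the summed FPKM of both transcripts (y axes, %) of Itga6 and of Kit in each sample (points) by group. For Itga6 the SSC points lie between 12.6% and 20.6% and the HSC and MEF points above 83%. For Kit the SSC points lie between 36.7% and 40.4%, MASC.5 stands at 89.4%, and no share is drawn for the MEF sample, where both transcripts were near 0.

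Itgb1, the β1 chain that pairs with the α6 chain and with many others, was high in all samples and was not called against the pluripotent lines or HSCs. Its level in SSC.1 to SSC.4 was 52.4, 77.0, 105 and 72.8 FPKM, the pluripotent lines ran from 44.5 to 112 FPKM, and the HSC cultures were at 45.4 and 78.1 FPKM. The difference from the pluripotent lines was 0.15 on the log2 scale with a 95% interval from -0.41 to 0.72. The MEF sample, at 294 FPKM, lay above all other samples, and SSCs were lower by 1.96 ± 0.47 on the log2 scale (adjusted p = 0.00857). Itgav, the αv chain that binds vitronectin and fibronectin, had 3.21, 9.67, 6.44 and 5.43 FPKM in SSC.1 to SSC.4. The pluripotent lines ran from 4.83 to 10.3 FPKM and the HSC cultures were at 3.05 and 8.84 FPKM, so the ranges overlapped throughout. The difference from the pluripotent lines was -0.13, with a 95% interval from -0.77 to 0.51. The MEF sample held 16.9 FPKM, above all SSC lines, and the difference of -1.40 ± 0.53 had an adjusted p of 0.075.

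Per length, Itgb1 exceeded the summed Itga6 transcripts by 3.09-fold to 9.50-fold in the SSC lines and by 1.36-fold to 3.25-fold in the pluripotent lines. Itgb4, the other beta chain that pairs with the α6 chain, was low in SSCs (1.86 to 2.75 FPKM) and in the pluripotent lines (1.21 to 4.76 FPKM). Among the 21 further integrin chains, 1 was called higher in SSCs than in the pluripotent lines and 2 lower, a number that does not stand out from the 10.1% and 6.08% of all transcripts. Itga3 and Itga5, the laminin-binding α3 chain and the fibronectin receptor chain α5, were lower by -1.66 each (adjusted p = 0.0229 and 0.0119), and Itga7, another laminin-binding chain, was higher by 1.34 (adjusted p = 0.0321). The beta partners of the αv chain were not called: Itgb3 ran from 3.28 to 7.56 FPKM and Itgb5 from 24.8 to 42.1 FPKM in SSCs, while Itgb6 and Itgb8 stayed below 1 FPKM in SSCs and in the pluripotent lines.

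Of 15 laminin chains, nidogens and other matrix ligands, 4 were lower in SSCs than in the pluripotent lines and 0 higher, where 6.08% and 10.1% of all transcripts were called, and the median difference over the list was -0.07 against 0.01 over all transcripts. Against HSCs, 4 of the 15 were higher in SSCs and 0 lower, where 14.2% and 8.75% of all transcripts were called. Lama1, the α chain of the early embryonic laminin, ran from 0.632 to 1.74 FPKM in SSCs and from 1.88 to 36.0 FPKM in the pluripotent lines. Lamc1, the γ1 chain shared by most laminins, was at 10.4 to 31.4 FPKM against 36.8 to 83.3 FPKM, a difference of -1.72 ± 0.29 (adjusted p = 0.00071). Lama5 differed by -1.19 and Lama3 by -1.49, and all 4 genes lay in the 4 SSC lines below every pluripotent line. Lamb1, the β1 chain of laminin, was not called, with 50.7 to 86.7 FPKM in SSCs and 19.4 to 77.2 FPKM in the pluripotent lines. None of 12 integrin adaptors was called against the pluripotent lines, with a median difference of -0.54. Still, Ptk2 lay in all SSC lines above every pluripotent line (29.8 to 39.4 FPKM against 17.2 to 22.5 FPKM). Fermt2 lay below (23.6 to 33.8 FPKM against 36.3 to 61.9 FPKM), as did Fermt1 and Fermt3, both under 1 FPKM in SSCs. Over all transcripts, 13.3% lay above and 7.86% below. Against ESCs 3 of the 12 were called lower and 0 higher, where 4.96% and 8.75% of all transcripts were called. Against HSCs 4 of the 12 were higher in SSCs and 3 lower, among them the kindlin genes Fermt2 (2.47) and Fermt3 (-7.43), the latter known from blood cells.

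**Figure D3:**
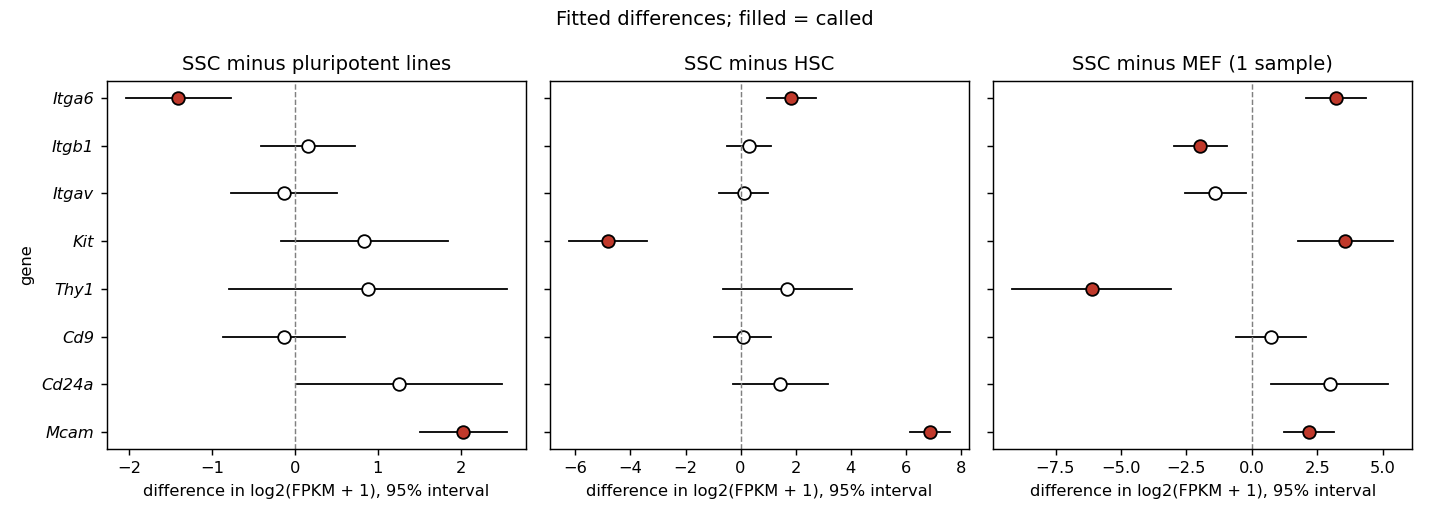
Fitted differences of the 8 markers in log2(FPKM + 1) (x axes, which differ between panels) between SSCs and the pluripotent lines, HSCs and the MEF sample, with 95% intervals as lines. Filled points were called. Mcam and Itga6 are filled in all panels, with the main Itga6 transcript at -1.41 against the pluripotent lines and at 1.84 and 3.20 against HSCs and the MEF sample. Summed over both transcripts, Itga6 was at -0.21 against HSCs and was not called.

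Kit was present in all SSC lines, at a small part of its level in the HSC cultures. SSC.1 to SSC.4 had 10.1, 14.3, 6.30 and 15.8 FPKM of its main transcript, and the HSC cultures had 401 and 286 FPKM. The difference was -4.82 ± 0.65 on the log2 scale, so Kit was 28.2-fold higher in HSCs (adjusted p = 0.000115). The MEF sample was listed at 0.0096 FPKM, against which the difference was 3.57 ± 0.84 (adjusted p = 0.00763). The pluripotent lines ran from 0.347 FPKM in MASC.5 to 10.6 FPKM in iPS.1 with a median of 5.57 FPKM, and their range overlapped with that of SSCs. The difference of 0.83 had a 95% interval from -0.17 to 1.84 and an adjusted p of 0.201. Against MASCs it was 1.30 (adjusted p = 0.0926), and it was called when both transcripts were summed (1.32, adjusted p = 0.0197) or transcripts with low values were left out (adjusted p = 0.0475).

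The longer Kit form, with the 12 bases in capitals above, made up 36.7%, 37.5%, 37.7% and 40.4% of both forms in SSC.1 to SSC.4, and between 16.6% and 89.4% in MASCs. In MASC.5 the main form was at 0.347 FPKM and the longer one at 2.92 FPKM, so the low point of MASC.5 was less far from the other MASC lines for the sum of both, which was 3.26 FPKM there and at most 13.0 FPKM in the others. The HSC cultures had 21.9% and 25.8%. Kitl, the ligand of c-Kit, stood at 0.296 to 2.34 FPKM in SSCs and at 0.430 to 1.48 FPKM in the pluripotent lines, and the difference of -0.06 was not called (adjusted p = 0.959). Of 14 genes of the ligand and its signalling, 2 were called higher in SSCs than in the pluripotent lines and 1 lower, near the 10.1% and 6.08% of all transcripts. Sh2b3 (15.5 to 27.9 FPKM against 4.16 to 7.65 FPKM) and Socs1 (8.47 to 25.6 FPKM against 1.56 to 8.26 FPKM), which encode inhibitors of cytokine signalling, were higher by 1.78 and 1.99. Ptpn6, a phosphatase that acts on c-Kit, was lower by 2.23 in size, at 0.352 to 3.68 FPKM against 4.26 to 13.9 FPKM. Against HSCs 2 of the 14 were higher in SSCs (Socs1 and Cbl) and 8 lower, where 14.2% and 8.75% of all transcripts were called. The lower ones included Gata2 (-6.91), Gata1 (-5.57) and Tal1 (-4.95), transcription factors of blood and mast cells, beside the mast cell markers that the cultures held.

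Thy1, a small glycoprotein held in the membrane by a GPI anchor, is also a marker of fibroblasts, and it was far higher in the MEF sample (849.9 FPKM) than in any line. SSC.1 to SSC.4 had 23.6, 6.28, 24.8 and 3.82 FPKM. SSC.1 and SSC.3, which had the high fibroblast sums of 468 and 1060 FPKM, were the high lines, and SSC.2 and SSC.4, with sums of 35.9 and 115 FPKM, were the low ones. The pluripotent lines ran from 1.96 to 45.1 FPKM with a median of 4.13 FPKM, and the difference of 0.88 ± 0.76 was not called (adjusted p = 0.448, 95% interval from -0.79 to 2.55). With a term for genetic background its sign turned, to -0.30. The HSC cultures were at 1.21 and 5.45 FPKM, and the culture with the higher value also had the higher fibroblast sum (497 against 7.27 FPKM). The MEF sample was higher than SSCs by 6.12 ± 1.39 on the log2 scale, or 69.7-fold (adjusted p = 0.00633).

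Over the 14 lines grown on MEF feeders, Thy1 went with the fibroblast sum with r = 0.92 and rho = 0.86, and with r = 0.87 over 12 lines without SSC.3 and MASC.1. Over the 10 pluripotent lines r was 0.94 and rho 0.93. Each point is 1 library, so both values share its depth and its feeder cells. As a share of the MEF sample, Thy1 stood at 2.77% in SSC.1, 0.739% in SSC.2, 2.91% in SSC.3 and 0.45% in SSC.4, and the fibroblast sum at 6.80%, 0.522%, 15.4% and 1.67%. In SSC.2 the share of Thy1 was thus above that of the fibroblast sum, as it was in iPS.1 (0.238% against 0.0942%) and HSC.1 (0.142% against 0.106%), and in the other lines it was below. Whether Thy1 in these libraries came from SSCs or from feeder cells left after the gelatin step was not tested.

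**Figure D4:**
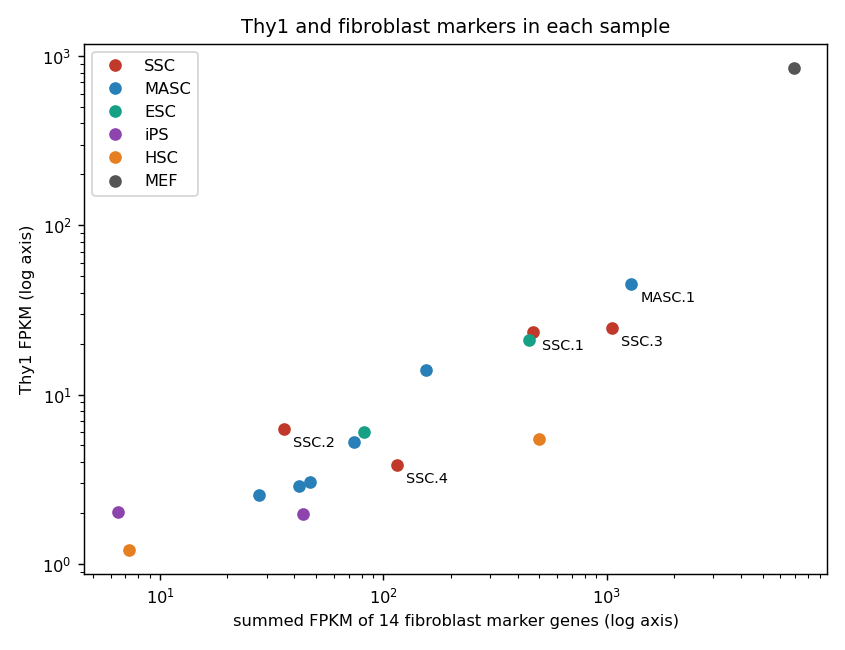
Thy1 level (y axis, FPKM, log axis) against the summed level of 14 fibroblast markers (x axis, FPKM, log axis) in the 17 samples (points, coloured by group). Lines with more fibroblast transcripts had more Thy1, SSC.1 and SSC.3 stand at 23.6 and 24.8 FPKM, and the MEF sample stands at 849.9 FPKM.

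Cd9, a tetraspanin that organizes membrane proteins including β1 integrins, was among the most abundant of the 8 in every group, and it was not called in any comparison. SSC.1 to SSC.4 had 129, 408, 100.3 and 308 FPKM, which ran from below to above the range of the pluripotent lines (148 to 346 FPKM). The HSC cultures had 147 and 247 FPKM and the MEF sample 121 FPKM. The differences were -0.13 from the pluripotent lines (95% interval from -0.86 to 0.60), 0.08 from HSCs and 0.72 from the MEF sample. SSC.1 and SSC.3, with the high fibroblast sums, were the low lines, and over the 14 lines on feeders Cd9 and the fibroblast sum had r = -0.66 and rho = -0.62. Without the 5 libraries over 5% of the MEF fibroblast sum, the difference from the pluripotent lines turned to 0.58, below the size needed for a call. Those from HSCs and the MEF sample became 1.27 and 1.54. This setting was chosen after seeing the data. Of the SSC lines it kept only SSC.2 and SSC.4, which have the highest Cd9. Of the HSC cultures it kept only HSC.1, the lower in Cd9.

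Of 24 other tetraspanins and partners of CD9, 5 were higher in SSCs than in the pluripotent lines and 4 lower, where 10.1% and 6.08% of all transcripts were called. Igsf8, a direct partner of CD9, was at 42.9 to 61.2 FPKM in SSCs and at 6.88 to 23.6 FPKM in the pluripotent lines, a difference of 1.78 ± 0.29 (adjusted p = 0.000519). Ptgfrn, the other main partner, was at 17.2 to 31.2 FPKM against 14.7 to 33.3 FPKM and was not called. Cd81, the nearest relative of Cd9, was lower by 1.24 in size (55.0 to 121 FPKM against 102 to 283 FPKM, adjusted p = 0.0186), and Cd151, a partner of laminin-binding integrins, was not called (16.3 to 28.0 FPKM against 17.3 to 41.7 FPKM). Tspan33 (2.80), Tspan8 (1.84) and Cd37 (-2.31) had the largest differences beside Igsf8.

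Cd24a encodes a small GPI-anchored sialoglycoprotein and was, by the SD on the log2(FPKM + 1) scale, the marker with the widest spread among SSC lines (1.33, followed by Thy1 with 1.23). It stood at 19.2, 97.5, 24.8 and 124 FPKM in SSC.1 to SSC.4, with SSC.2 and SSC.4 above every other sample of the series. The pluripotent lines ran from 11.3 to 61.6 FPKM with a median of 21.2 FPKM, the HSC cultures were at 16.3 and 18.7 FPKM, and the MEF sample was at 5.44 FPKM. All SSC lines thus lay above ESCs, HSCs and the MEF sample and overlapped with MASCs and iPS cells. ESCs, HSCs and MEFs have only 2, 2 and 1 samples, and the share of all transcripts lying above each was not counted. The difference from the pluripotent lines was 1.26 ± 0.56 (adjusted p = 0.111, 95% interval from 0.03 to 2.49), from HSCs 1.45 ± 0.79 (adjusted p = 0.195) and from the MEF sample 2.96 ± 1.02 (adjusted p = 0.0516). The first was called without SSC.1 (1.70, adjusted p = 0.0423) and with a term for genetic background (1.95, adjusted p = 0.0273). Without the 5 libraries over 5% of the MEF fibroblast sum, a setting chosen after seeing the data, it was 2.32. That setting kept only SSC.2 and SSC.4, the high SSC lines, and dropped the low ones. Cd24a has processed pseudogenes in the mouse genome, and multi-mapped reads had been dropped, so its level is uncertain.

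Thy1 and Cd24a need the GPI anchor, and of 18 genes of its synthesis and trimming, 2 were higher in SSCs than in the pluripotent lines and 2 lower, a number near the 10.1% and 6.08% of all transcripts that were called. Pigt, a subunit of the transamidase that attaches the anchor, was at 55.4 to 109 FPKM against 23.2 to 52.2 FPKM, and Pgap1, which trims the anchor, at 3.45 to 7.36 FPKM against 1.31 to 2.64 FPKM. Pigl was lower by 1.25 in size. The main transcript of Pigp was lower by 4.73 in size (0.982 to 2.94 FPKM against 56.2 to 132 FPKM), while its 6 transcripts summed to 26.2 to 37.3 FPKM against 61.6 to 147 FPKM.

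**Figure D5:**
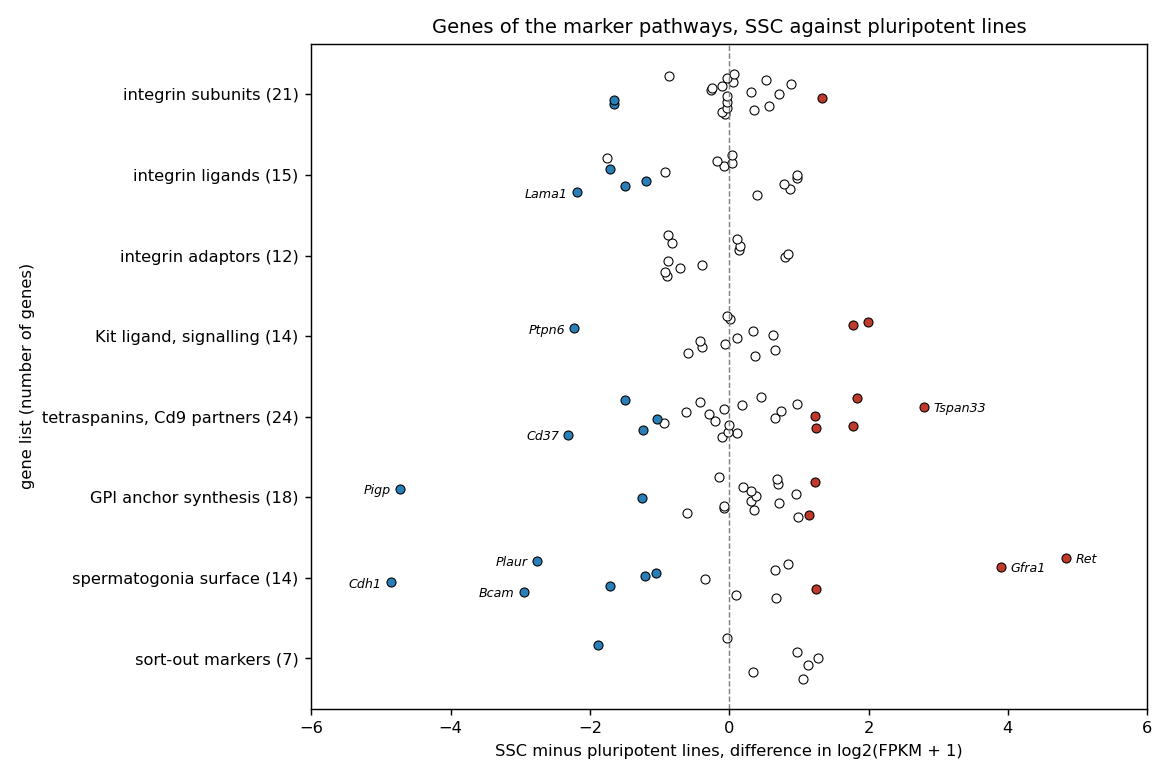
Differences in log2(FPKM + 1) between SSCs and the pluripotent lines (x axis) for the genes of 8 lists around the markers (y axis, number of genes in brackets). Each point is a gene, and filled points were called higher (red) or lower (blue) in SSCs. Ret (4.84) and Gfra1 (3.90) stand at the far right, Cdh1 (-4.86) and Pigp (-4.73) at the far left, and no integrin adaptor is filled.

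Of 14 other surface genes used for spermatogonia, 3 were higher and 6 lower in SSCs than in the pluripotent lines, where 10.1% and 6.08% of all transcripts were called. Gfra1 and Ret, which form the receptor of GDNF, the growth factor of the SSC medium, were higher by 3.90 ± 0.29 and 4.84 ± 0.26. Gfra1 was at 9.04 to 31.7 FPKM in SSCs and 0.099 to 1.27 FPKM in the pluripotent lines, but also at 35.5 FPKM in the MEF sample. Cdh1, the E-cadherin gene, was lower by 4.86 in size (0.642 to 7.08 FPKM against 101 to 141 FPKM), and Epcam, another epithelial adhesion molecule, by 1.20 in size (37.3 to 140.3 FPKM against 95.4 to 188 FPKM). Bcam, a laminin-binding adhesion molecule, was lower by 2.95 in size. Of 7 genes of MHC class I, blood and endothelium that sorts exclude, 1 was called lower against the pluripotent lines (Pecam1). The share of all transcripts called lower was 6.08% there. Against HSCs all 7 were called lower, where 8.75% of all transcripts were. B2m, the light chain of MHC class I, was at 66.7 to 119 FPKM in SSCs, at 10.5 to 231 FPKM in the pluripotent lines and at 1255 and 1683 FPKM in the HSC cultures, and the 3 transcripts of Ptprc, which encodes CD45, summed to between 0.0143 and 0.440 FPKM in SSCs.

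The order of the group means differed from marker to marker. Kit ran from HSCs through SSCs, iPS cells, ESCs and MASCs to the MEF sample, and the ranges of SSCs and iPS cells and of ESCs and MASCs overlapped. The main transcript of Itga6 ran from iPS cells through ESCs, MASCs and SSCs to HSCs and the MEF sample, and each of the first 3 groups overlapped with the next. Summed over both transcripts, SSCs (7.66 to 24.9 FPKM) and HSCs (8.15 and 30.0 FPKM) overlapped. For Itgb1 and Itgav the MEF sample stood first and apart, and every pair of neighbours among the other 5 groups overlapped. The same held for Thy1, in the order ESCs, SSCs, MASCs, HSCs and iPS cells. Cd9 was highest in iPS cells and lowest in the MEF sample, and only the MEF sample did not overlap with its neighbour in the order, MASCs. Cd24a was highest in SSCs, followed by MASCs, iPS cells and HSCs with overlapping ranges, then ESCs and the MEF sample apart.

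The transcripts whose levels ran most like each marker were sought over the 17 samples among 16608 transcripts with a mean of at least 1 FPKM and at least 300 bases, by Pearson's r on the log2(FPKM + 1) scale. These values describe samples that share groups and culture steps, and 6 groups set most of the spread. For Mcam they were Ptk2 (r = 0.97), Sh3bgrl2 (0.97) and Tanc1 (0.96), and Ptk2, which encodes focal adhesion kinase, ran from 29.8 to 39.4 FPKM in SSCs. For Itga6 they were Kif20a (0.98), Kif2c (0.97) and Ccnf (0.97), all genes of the cell cycle. For Thy1 they were Irx1 (0.97), C1qtnf2 (0.96) and Kif26b (0.96), and for Kit they were Cyfip2 (0.94), Tbc1d10c (0.94) and Chn2 (0.93). Itgb1 was nearest to Ikbip (0.95), Adam9 (0.94) and the collagen-binding integrin chain Itga11 (0.91), and Itgav to Rgs3, Sh3glb1 and Pcyox1 (0.88, 0.87 and 0.87). The values were lowest for Cd24a, with Tial1 (0.86), Acsl3 (0.86) and Ddr1 (0.84), while Cd9 was nearest to Ociad1 (0.91), Ppp6r3 (0.90) and Tmx2 (0.86).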

How the data were processed

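The authors deposited 1 Cufflinks table per sample with an FPKM for each RefSeq transcript, and beside it confidence bounds and a coverage signal. Per the labels and the study's methods, reads were aligned with TopHat2 (2.0.11) to mm9, duplicates and reads with more than 1 mapping place were dropped, and Cufflinks ran with upper-quartile and GC normalization. Its version is not given in the sources used here. The files hold no read counts. Of 33262 lines per file, 601 further loci of a transcript were left out and 32661 were analysed as log2(FPKM + 1), with no filter, in limma 3.58.1 (R 4.3.3), tested on simulated data. MASC and ESC comparisons were fitted on SSCs, MASCs and ESCs, the others on all 17 samples, where the single MEF sample is assumed to vary like the other groups. p-values measure the spread between lines and cultures, which were treated as independent also where they share a genetic background.

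The markers and gene lists were chosen with earlier results of these data known. Named beside the markers were, for each list, up to 4 called genes with the largest differences from the pluripotent lines and the direct ligands and partners, and the 3 transcripts most similar to each marker. The list genes named for the HSC comparison were picked after their values were seen. A gene of the integrin ligand list is not reported here. Sequences came from NCBIM37 with GENCODE vM1.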

Additional observations from a re-analysis of the deposited data

Results flagged for a closer look

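In each of the 16 groups of 4 or 6 lines tested for a value set apart from the others (8 markers in SSCs and in MASCs), chance gives such a value in about 1 in 20 groups. Among MASCs, Itgav was highest in MASC.1, at 9.26 FPKM, and Kit was lowest in MASC.5, at 0.347 FPKM. MASC.1 also had the highest fibroblast sum of the lines, and in MASC.5 the longer Kit transcript was at 2.92 FPKM. Thy1 was lower in both Oct4-GFP SSC lines than the mean of the MASC lines of that background (difference of -0.97) and higher in the 129mix SSC line (0.29). Itgb1 went the same way, with -0.29 in Oct4-GFP and 0.15 in 129mix. The difference between backgrounds was not tested, and 129mix holds 1 SSC line.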

How the results depend on the processing

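Of 760 values for a marker in a comparison under another setting, 678 kept their direction and their side of the threshold, 24 lost a call, 20 gained one and 38 changed sign. The Mcam calls against the pluripotent lines, ESCs and HSCs were kept under all settings run. At a difference of at least 2, 1 marker was called against the pluripotent lines, 0 against MASCs and 1 against ESCs. Fitted on SSCs and the MEF sample alone, 0 of 8 markers were called (adjusted p from 0.0509 to 0.0904 for the 5 called in the full fit), with 1 MEF sample and few degrees of freedom. With each line left out in turn, between 1 and 2 markers were called against MASCs (1 without SSC.4) and between 1 and 2 against ESCs (1 without ESC.1, ESC.2, SSC.1 or SSC.3, where Itga6 lost its call). With the genetic background as a term, 1 was called against MASCs.

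The sign changes concern Cd9, Itgav, Itgb1, Thy1 and, against HSCs, Itga6, and none of these differences was called under the setting that turned its sign. Cd9 against the pluripotent lines became 0.44 after quantile normalization, 0.32 with the background term and 0.58 without the 5 libraries over 5% of the MEF fibroblast sum. Cd9 against HSCs became -0.92 with the background term. There SSC.3 alone is set against HSCs, since no other line shares their background. Itgav became 0.24 against the pluripotent lines and 0.30 against MASCs without those 5 libraries, and -0.23 against HSCs after quantile normalization. With the background term, Itgb1 became -0.037 and -0.11 and Thy1 -0.30 and -0.44 against the pluripotent lines and MASCs. Itga6 against HSCs became -0.21 when its transcripts were summed. Leaving out single lines moved Cd9 between -0.47 and 0.20 (pluripotent lines), -0.18 and 0.49 (MASCs), -0.21 and 0.46 (ESCs) and -0.29 and 0.45 (HSCs), Itgav between -0.35 and 0.10, -0.30 and 0.15, -0.26 and 0.19, and -0.53 and 0.75, Itgb1 between -0.065 and 0.37 (pluripotent lines), -0.044 and 0.28 (MASCs) and -0.067 and 0.70 (HSCs), and Thy1 against ESCs between -0.84 and 0.80.

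Replicate numbers recur between groups, and no source pairs the lines. Deviations from the group means of same-numbered SSC and MASC lines had correlations from -0.23 to 0.18 (4 pairs, mean -0.03). Over 20 other pairs the mean was 0.0048. Taking deviations from group means holds the mean over all pairs near 0, so these 2 means say little. Single other pairs ran from -0.32 (SSC.2 with MASC.1) to 0.34 (SSC.3 with MASC.1), so the same-numbered pairs did not stand out. With only 2 same-numbered lines each, the correlations with SSCs were 0.21 and 0.26 for ESCs, 0.032 and -0.063 for iPS cells and 0.035 and -0.039 for HSCs. With the replicate number as a block, 1 marker was called against MASCs and 1 against ESCs, Itga6 losing its call in both, Thy1 against ESCs became 0.73, and 1643 transcripts in place of 2859 were called higher and 961 in place of 1620 lower against ESCs. The MEF label carries no number, so no block was run for it. The cause of these changes was not tested.

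Over all transcripts, a pseudocount of 0.1 gave 5202 in place of 3314 called higher against the pluripotent lines and 4723 in place of 3137 against MASCs. Without the size threshold, 7233 were called higher and 4038 lower against the pluripotent lines, 6360 and 3739 against MASCs, and 4495 and 2505 against ESCs. At a difference of at least 2, 723 higher and 585 lower remained in number against the pluripotent lines, 697 and 565 against MASCs, 767 and 565 against ESCs, 1659 and 1346 against HSCs, and 1571 and 1164 against the MEF sample. Without ESC.2, 1878 were called higher against ESCs. Fitted on the compared groups alone, 2963 were called higher against HSCs, and 1364 higher and 1089 lower against the MEF sample. A transcript under 1 FPKM rests on few reads, and the files give no read counts from which its error could be had.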
